A study of Mus musculus with 8 samples.

Results

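Condensin and cohesin are the ring-shaped SMC (structural maintenance of chromosomes) complexes that organise chromosomes, and their genes were followed here in mouse embryonic fibroblasts that lack both cryptochromes. The members are all probe sets of the deposited array table that are annotated to 1 gene alone out of 5 condensin genes (Smc2, Smc4, Ncapd2, Ncapg and Ncaph) and 5 cohesin genes (Smc1a, Smc3, Rad21, Stag1 and Stag2). These are 10 of the 13307 genes to which the table gives a probe set of their own, and they hold 30 of its 30506 probe sets, 14 for condensin and 16 for cohesin. RNA from 8 independent primary lines was hybridised to an Affymetrix array, 1 array per line. The 4 Cry DKO lines carried the genotype Cry1-/- and Cry2-/-, and the 4 WT lines were wild-type. Embryos of both genotypes were near C57BL/6J, after more than 7 backcrosses of BL6/129 animals, and the lines grew untreated as asynchronous proliferating cultures in DMEM/F10 medium with 10% serum at 3% oxygen.

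Condensin folds chromatin into compact chromosomes for mitosis. Its ATPases SMC2 and SMC4 are joined by a kleisin subunit, NCAPH in the condensin I complex, and by the HEAT-repeat subunits NCAPD2 and NCAPG. Cohesin, built from the ATPases SMC1A and SMC3, the kleisin RAD21 and either STAG1 or STAG2, holds sister chromatids together from S phase to anaphase and also forms chromatin loops throughout interphase. In cycling cells many condensin genes belong to the programme of genes transcribed toward G2 and mitosis. Cryptochromes repress CLOCK and ARNTL, the activators of the circadian clock.

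Values are log2 signals, and each difference is the mean of the Cry DKO lines minus that of the WT lines in log2 units (n = 4 each). Each gene was read from its probe set of highest mean, and a probe set counted as dim when its mean over the 8 arrays lay under 6.05, the floor used to select genes. Array medians lay between 6.78 and 6.79, and the number of arrays limits the precision, with a median within-genotype SD of 0.13 for a tested gene. The median difference of all 9515 tested genes was -0.01, and 873 of them passed an adjusted p of 0.05 in limma. The targeted genes did not check the genotype labels: Cry1 ranged from 5.84 to 6.50 in Cry DKO lines and from 6.42 to 7.27 in WT lines, Cry2 from 6.64 to 7.12 in Cry DKO lines and from 6.97 to 7.34 in WT lines, neither passed (limma adjusted p = 0.168 and 0.132), and the place of their probes relative to the deleted parts is not known here. Of 15 fibroblast markers 12 lay above the floor, while Pdgfra, Dcn and Lum lay below it, as did all endothelial and germ cell markers on the table. Xist, expressed from the inactive X chromosome, was 10.13 and 10.12 in Cry DKO lines 1 and 4 and 9.93 in WT line 1, against 3.55 to 4.92 in the other 5 lines, and the Y-linked genes ran the other way, so the sexes were not balanced between the genotypes.

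The 5 condensin genes rose in Cry DKO lines, by 0.30 to 0.53 on the log2 scale, and in none of them did the genotypes overlap. None of the 5 cohesin genes passed the test, with differences of 0.01 to 0.24, all 5 above 0. Before adjustment for multiple testing Smc3, Stag1 and Rad21 lay under the limma threshold of 0.05, and Smc1a and Stag2 did not. Among all tested genes 9.17% were called, 4.95% higher and 4.22% lower in Cry DKO lines, while 8.31% had all Cry DKO lines above all WT lines, and 48.5% had a difference above 0. The median difference was 0.35 for the condensin genes and 0.21 for the cohesin genes. These are levels of RNA in bulk cultures, in which more cells that express a gene and more RNA per cell cannot be told apart.

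Smc2 (1448635_at, chromosome 4), the ATPase found in every condensin, had 10.25, 10.19, 10.13 and 10.21 in Cry DKO lines 1 to 4, against 9.80, 9.59, 9.64 and 9.63 in WT lines 1 to 4. All 4 Cry DKO lines lay close together and well above the WT lines, of which line 1 was the highest. The rise was 0.53 (SE 0.06, 95% interval 0.40 to 0.66, limma adjusted p = 0.00112), a 1.44-fold difference, the 22nd smallest p among the 9515 genes. Smc4 (1427275_at, chromosome 3), its partner ATPase, had 11.17, 11.07, 11.29 and 11.58 in Cry DKO lines, against 11.02, 10.87, 10.86 and 10.97 in WT lines. Line 4 stood highest among the Cry DKO lines, and the lowest Cry DKO line was only just above the highest WT line. Smc4 rose by 0.35 (SE 0.10, 95% interval 0.14 to 0.56, limma adjusted p = 0.0437), or 1.27-fold.

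The kleisin gene Ncaph (1436707_x_at, chromosome 2) had 9.33, 9.15, 9.25 and 9.53 in Cry DKO lines, against 8.86, 8.80, 8.78 and 8.77 in WT lines. The WT lines were nearly equal, and line 4 was again the highest of the Cry DKO lines. Ncaph rose by 0.51 (SE 0.08, 95% interval 0.34 to 0.69, limma adjusted p = 0.00418), 1.43-fold. Ncapd2 (1423847_at, chromosome 6), a HEAT-repeat subunit, had 9.005, 8.99, 9.01 and 9.08 in Cry DKO lines, against 8.80, 8.68, 8.72 and 8.70 in WT lines, a small difference of 0.30 with little spread in either genotype (SE 0.06, limma adjusted p = 0.0149). Ncapg (1429171_a_at, chromosome 5), the other HEAT-repeat subunit of condensin I, had 7.87, 7.92, 7.63 and 7.85 in Cry DKO lines, against 7.52, 7.49, 7.42 and 7.48 in WT lines. Cry DKO line 3 was the lowest of its genotype and still above every WT line, and the rise was 0.35 (SE 0.09, limma adjusted p = 0.032).

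**Figure D1:**
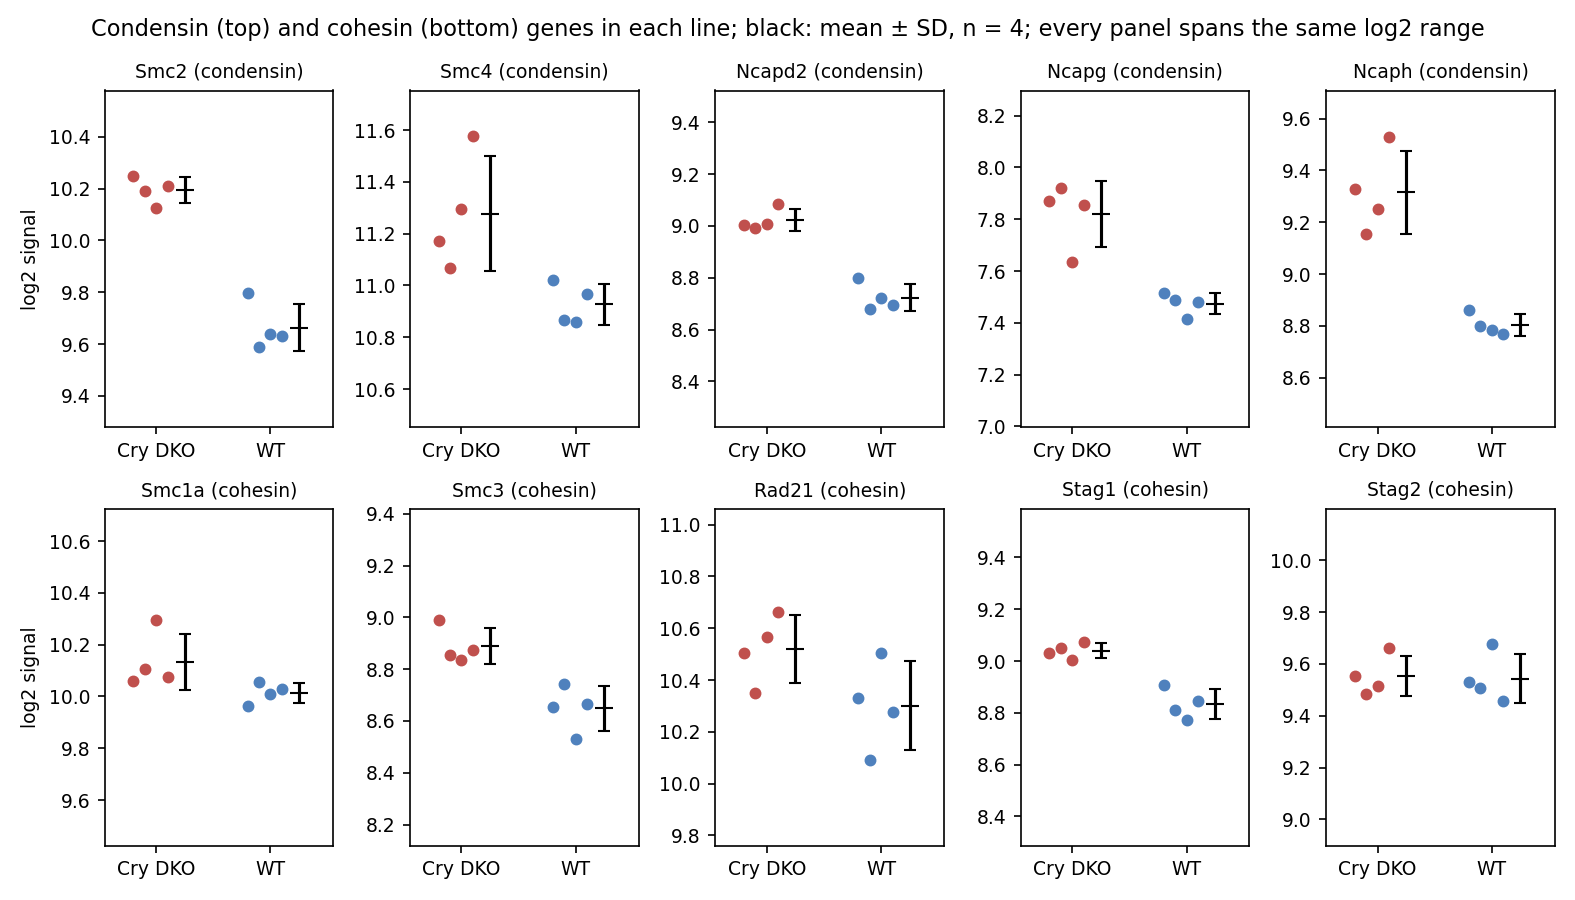
Log2 signal (y axis) of the 5 condensin genes (top row) and the 5 cohesin genes (bottom row) in 4 Cry DKO lines (left in each panel) and 4 WT lines (right). Points are lines, black bars the mean ± SD, and every panel spans the same log2 range. Every condensin gene has all Cry DKO lines above all WT lines, while Rad21 and Stag2 overlap.

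The calls of Smc2, Ncaph and Ncapd2 held in all 8 fits that leave out 1 line. Smc4 was past the threshold in 2 of those 8 fits, those without Cry DKO line 1 and without Cry DKO line 2, and Ncapg in 1, that without Cry DKO line 3, with differences of 0.25 to 0.42 for Smc4 and 0.31 to 0.41 for Ncapg. When the fit included each line's sex, Smc4 had a difference of 0.31 (adjusted p = 0.0784 in limma) and Ncapg one of 0.33 (adjusted p = 0.0661 in limma), and the other 3 condensin genes passed. Without an intensity trend in the fit Smc4 also missed the threshold (adjusted p = 0.0816 in limma). Within the male lines (2 Cry DKO, 3 WT) the 5 differences were 0.28 to 0.54, and within the female lines (2 Cry DKO, 1 WT) they were 0.25 to 0.57.

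Markers of macrophages and blood cells, which primary fibroblast cultures can hold, were also higher in the Cry DKO lines. Of 20 such markers 10 rose and none fell, with a median difference of 0.76, none of the 20 lay below the floor, and their mean level ranged from 8.32 to 9.31 in Cry DKO lines and from 7.73 to 8.35 in WT lines. The highest marker mean was in Cry DKO line 1 and the highest condensin mean in Cry DKO line 4, followed by Cry DKO line 1. Cry DKO line 3 was the lowest of its genotype in both means, and WT line 1 the highest of its genotype in both. Among WT lines the lowest marker mean was in line 2 and the lowest condensin mean in line 3, with line 2 close to it. With the marker mean as a covariate the condensin differences were 0.24 to 0.51 and none of the 10 members passed (0 in limma at an adjusted p of 0.05, with adjusted p = 0.0565 for Smc2). Few genes of any kind passed in that fit, 56 of all 9515 tested, against 873 without the covariate. This covariate itself differs between the genotypes. Fibroblast markers ran the other way: all 12 tested had a difference below 0, with a median of -0.13, 1 of them fell (Twist2, by 0.35, limma adjusted p = 0.041), and their mean level ranged from 12.29 to 12.45 in Cry DKO lines and from 12.46 to 12.61 in WT lines, so that the genotypes only just did not overlap. The part of either shift in the condensin differences was not tested.

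The cohesin genes gave smaller values. Smc3 (1450950_at, chromosome 19), one cohesin ATPase, had 8.99, 8.85, 8.84 and 8.87 in Cry DKO lines, against 8.65, 8.74, 8.53 and 8.66 in WT lines. The groups did not overlap, and the difference of 0.24 (SE 0.07, 95% interval 0.09 to 0.39) missed the threshold narrowly with limma adjusted p = 0.0536. Stag1 (1431921_a_at, chromosome 9), one of the alternative STAG subunits, had 9.03, 9.05, 9.01 and 9.07 in Cry DKO lines, against 8.91, 8.81, 8.77 and 8.84 in WT lines. Its lines also separated, with a difference of 0.21 (SE 0.06, 95% interval 0.08 to 0.34) and the same limma adjusted p, 0.0536. Smc3 passed in 3 of 19 alternative settings and Stag1 in 1 of them.

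Rad21 (1416161_at, chromosome 15), the kleisin cut by separase at anaphase, had 10.51, 10.35, 10.56 and 10.66 in Cry DKO lines, against 10.33, 10.09, 10.51 and 10.28 in WT lines. WT line 3 lay among the Cry DKO lines, and the difference was 0.22 (SE 0.09, 95% interval 0.02 to 0.42, limma adjusted p = 0.16). When the probe sets of a gene were averaged instead, the Rad21 difference was 0.44 and passed (limma adjusted p = 0.0199). Smc1a (1417830_at), the other cohesin ATPase, lies on the X chromosome and had 10.06, 10.10, 10.30 and 10.08 in Cry DKO lines, against 9.96, 10.05, 10.01 and 10.03 in WT lines. Apart from Cry DKO line 3 the values of both genotypes lay close together, the lowest Cry DKO line just above the highest WT line, with a difference of 0.12 (SE 0.06, 95% interval -0.02 to 0.26, limma adjusted p = 0.264). Stag2 (1421849_at), the other STAG subunit and also X-linked, had 9.55, 9.48, 9.51 and 9.66 in Cry DKO lines, against 9.53, 9.51, 9.68 and 9.46 in WT lines. The highest single value of Stag2 was in WT line 3, and the difference was 0.01 with a 95% interval of -0.14 to 0.16 (limma adjusted p = 0.951).

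The intervals of Smc1a and Stag2 ended below the smallest condensin difference, 0.30, whereas the intervals of Smc3, Stag1 and Rad21 reached above it. That condensin genes passed and cohesin genes did not is no test of a difference between the complexes, and none was made, since the members were chosen with these results known. For the X-linked pair the sex term, male minus female, was 0.10 for Smc1a and -0.06 for Stag2 (limma adjusted p = 0.9999 for both). That of Smc1a was close in size to its genotype difference of 0.12. In condensin genes the sex term was -0.16 for Smc4 and Ncaph, -0.12 for Smc2, and -0.07 for Ncapd2 and Ncapg, and none passed.

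As a description, each gene was centred on its mean over the 8 lines and averaged by complex in each line. The condensin mean was 0.20, 0.14, 0.14 and 0.33 in Cry DKO lines 1 to 4, against -0.12, -0.24, -0.24 and -0.21 in WT lines 1 to 4. The cohesin mean was 0.08, 0.02, 0.10 and 0.12 in Cry DKO lines, against -0.07, -0.11, -0.05 and -0.09 in WT lines. Both means separated the genotypes. Condensin minus cohesin was 0.12, 0.12, 0.05 and 0.21 in Cry DKO lines, against -0.05, -0.13, -0.19 and -0.12 in WT lines, so within every Cry DKO line the condensin genes stood higher relative to the cohesin genes than in any WT line. The mean shift between the genotypes was 0.41 for condensin, 0.16 for cohesin and 0.25 for condensin minus cohesin.

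**Figure D2:**
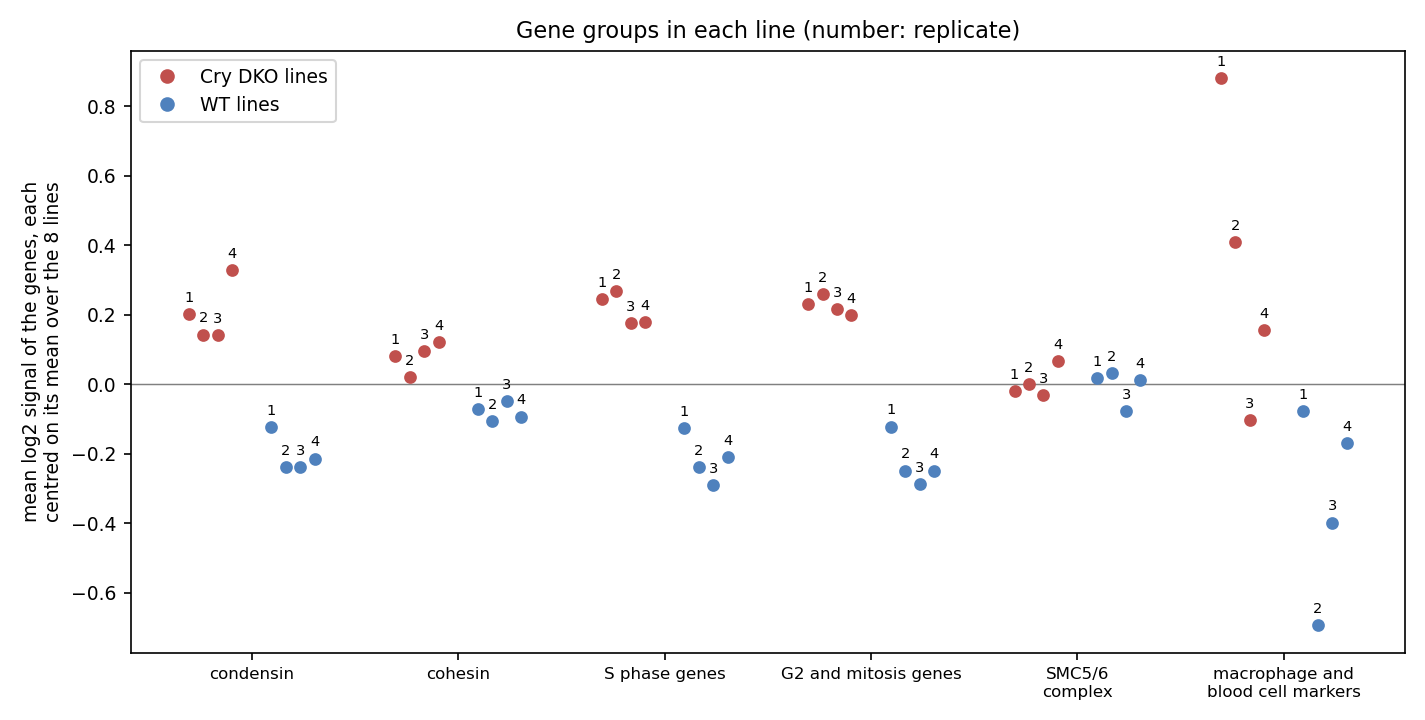
Mean log2 signal of each gene group in each line (y axis), after each gene was centred on its mean over the 8 lines, with Cry DKO lines left of WT lines and replicate numbers beside the points. Condensin, S phase, and G2 and mitosis genes separate the genotypes widely, cohesin genes by less, and the SMC5/6 and macrophage groups overlap.

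Testing every probe set with no floor left no member out. Of the 30 member probe sets 25 lay above the floor and 5 below it. In this fit, adjusted over 30445 probe sets of which 1.84% were called higher, 1.52% were called lower and 5.61% had all Cry DKO lines above all WT lines, 5 of 14 condensin probe sets and 1 of 16 cohesin probe sets rose and none fell. All 14 condensin probe sets had a difference above 0, from 0.16 to 0.59, with a median of 0.39, and in 11 of them the lines of the genotypes did not overlap. The 16 cohesin probe sets ranged from -0.09 to 0.81 with a median of 0.14, and 5 did not overlap. Probe sets of 1 gene share their RNA and are no replicates of the comparison.

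The 3 probe sets of Smc4 gave 0.35, 0.39 and 0.40, and the last 2 passed. Of these, 1452197_at had 10.84, 10.85, 10.70 and 10.77 in Cry DKO lines, against 10.46, 10.41, 10.26 and 10.45 in WT lines, with no overlap (limma adjusted p = 0.00576). The pair for Ncapg gave 0.35 and 0.37 and the pair for Ncaph 0.51 and 0.39, of which the first Ncaph probe set passed in this larger fit. Smc2 gave 0.53, 0.42 and 0.44 above the floor and 0.59 and 0.39 below it, where the intervals included 0. The probe set that gave 0.44, 1429660_s_at, had a mean of 6.39 in Cry DKO lines and 5.95 in WT lines. Its WT mean lay under the floor, while its mean over all lines did not. The dim probe set of Ncapd2 gave 0.16.

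For Rad21, 1416161_at and 1416162_at gave 0.22 and 0.30, while 1455938_x_at gave 0.81 (SE 0.16, limma adjusted p = 0.0205). The last had 9.32, 9.10, 9.33 and 10.00 in Cry DKO lines, against 8.68, 8.57, 8.88 and 8.38 in WT lines. Cry DKO line 4 was by far the highest. The suffix _x_at marks probe sets whose probes can match other transcripts as well, a class to which the probe set that represents Ncaph belongs too, and the sequence of the probes was not analysed here. The 6 probe sets of Stag1 gave -0.07 to 0.31 and none passed, the 3 of Smc1a gave 0.02 to 0.17, and the pair for Stag2 gave 0.01 and 0.04. The dim probe set of Smc3, 1450951_at, gave -0.09 with a 95% interval of -0.59 to 0.41.

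**Figure D3:**
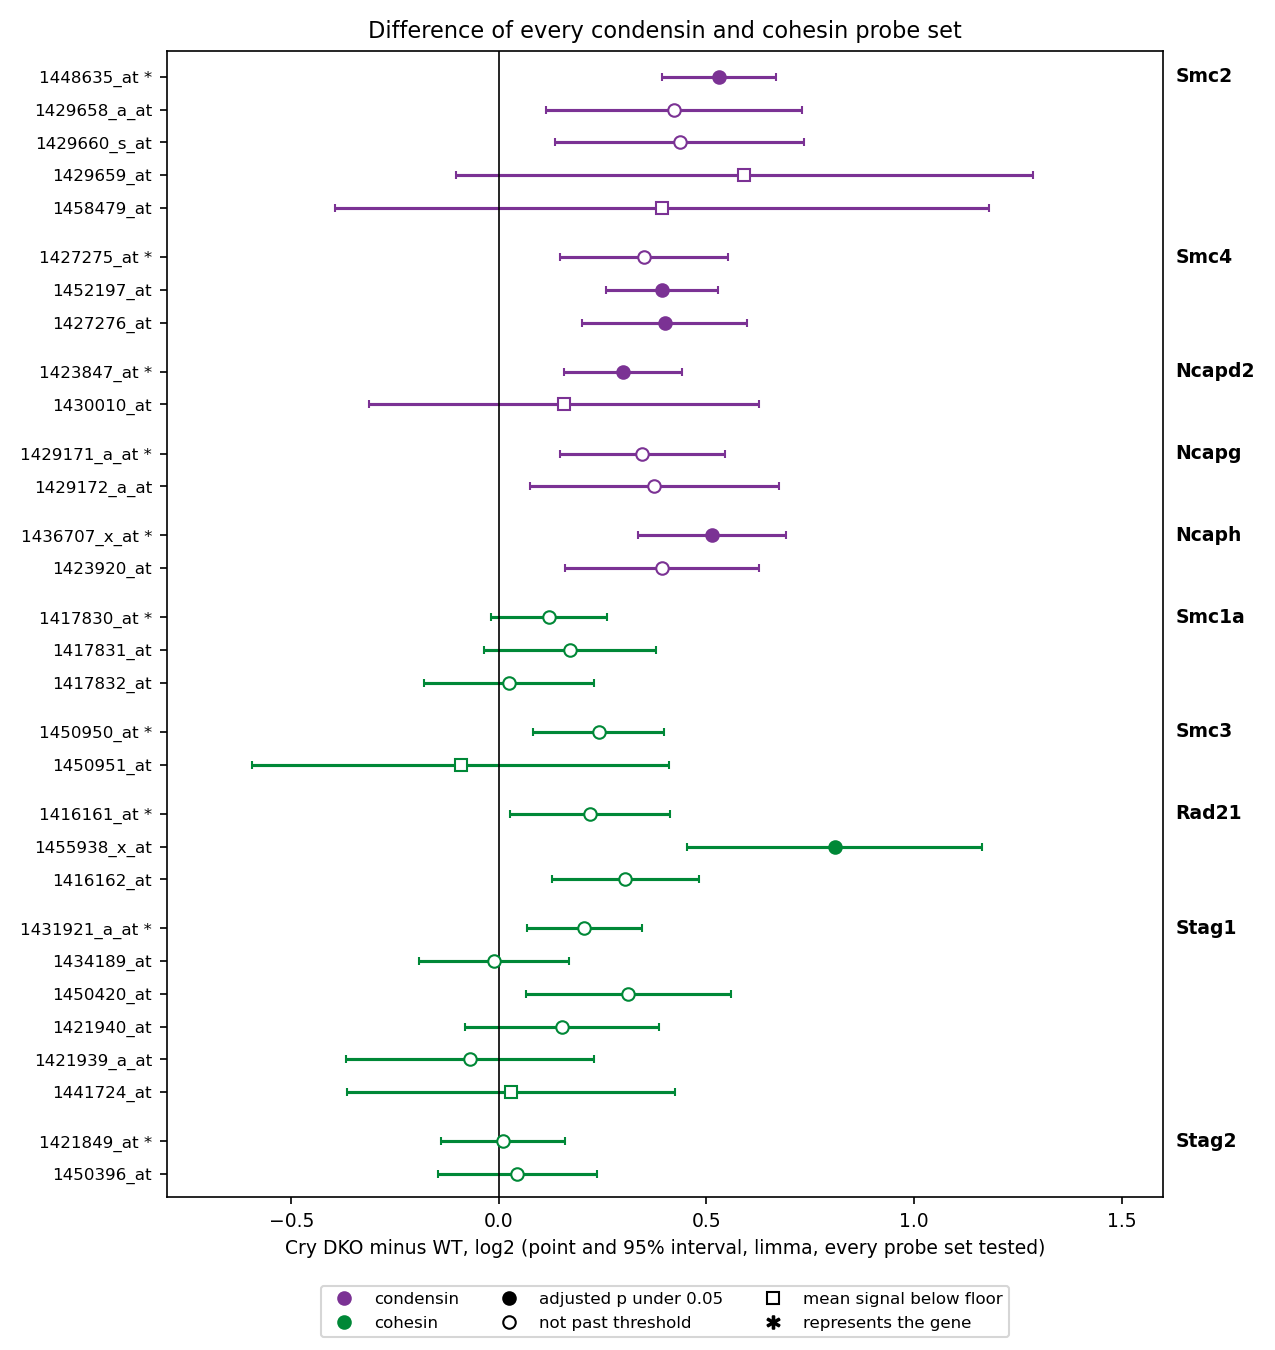
Log2 difference between Cry DKO and WT lines (x axis, Cry DKO minus WT) for each of the 30 member probe sets, with 95% intervals from the fit of all probe sets. Filled points passed an adjusted p of 0.05, squares lie below the floor, and an asterisk marks the probe set that represents its gene. All 14 condensin points lie right of 0, while the cohesin points lie from -0.09 to 0.81, with 1455938_x_at of Rad21 farthest right.

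Genes that work with the complexes were taken from lists of related genes. The condensin II complex shares SMC2 and SMC4 and has its own kleisin and HEAT-repeat subunits, of which 2 of 3 rose. Its HEAT-repeat subunit Ncapg2 had 8.99, 8.94, 8.91 and 9.17 in Cry DKO lines, against 8.49, 8.32, 8.39 and 8.48 in WT lines, a rise of 0.58 (SE 0.08, limma adjusted p = 0.00208). Ncapd3 rose by 0.34 (limma adjusted p = 0.0383), and the kleisin gene Ncaph2 had a difference of 0.33 (95% interval -0.01 to 0.68, limma adjusted p = 0.215), with 9.20 to 10.04 in Cry DKO lines and 9.03 to 9.46 in WT lines.

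Among the regulators of cohesin loading, release and acetylation 2 of 8 tested genes rose and none fell, with a median difference of 0.12. The pair that rose acts on cohesion in S phase. Esco2, an acetyltransferase of SMC3, rose by 0.76 (SE 0.17, limma adjusted p = 0.0213). Esco2 had 6.88, 6.61, 6.53 and 6.90 in Cry DKO lines and 6.25, 5.55, 6.14 and 5.96 in WT lines. Its mean was 6.73 in Cry DKO lines and 5.97 in WT lines, and the WT mean lay under the floor. Cdca5, sororin, which protects acetylated cohesin from release, rose by 0.61 (SE 0.08, limma adjusted p = 0.00234), with 8.72, 8.55, 8.52 and 8.56 in Cry DKO lines and 8.07, 7.85, 8.09 and 7.91 in WT lines. For both genes the genotypes did not overlap. The genes Pds5b, Pds5a and Wapl, for cohesin-associated factors, had differences of 0.23, 0.12 and 0.11, and the loader genes Nipbl and Mau2 had -0.13 and -0.20; none of these passed. Esco1, the other acetyltransferase, had a difference of -0.04, and Hdac8 lay below the floor.

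Of 4 genes for the cleavage and protection of cohesin 2 rose. Sgo1 and Sgo2a, the shugoshins that protect centromeric cohesin, rose by 0.51 (SE 0.12, limma adjusted p = 0.0288) and 0.41 (SE 0.09, limma adjusted p = 0.0209). Espl1, separase, had a difference of 0.41 that missed the threshold (SE 0.12, limma adjusted p = 0.0515), although its lines did not overlap. Pttg1, securin, which inhibits separase, had 10.84, 10.99, 10.94 and 10.92 in Cry DKO lines, against 11.001, 11.08, 11.03 and 11.13 in WT lines, with all Cry DKO lines below all WT lines and a difference of -0.14 (limma adjusted p = 0.125).

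The SMC5/6 complex, an SMC complex of DNA repair, had 6 tested genes of which none passed in either direction (0 in limma at an adjusted p of 0.05, and 0 at an unadjusted p of 0.05, the lowest being 0.0516), with a median difference of 0.03. The 2 of smallest p were Nsmce1 and Nsmce2, with differences of 0.15 and -0.22 (limma adjusted p = 0.201 and 0.437). For Nsmce1 all Cry DKO lines lay above all WT lines. Smc5 and Smc6 had differences of -0.02 and 0.06, with 95% intervals of -0.19 to 0.15 and -0.13 to 0.25. Of 5 further chromosome structure genes 3 rose: Top2a, the topoisomerase of mitotic chromosomes, by 0.56 (SE 0.05, limma adjusted p = 0.000181), Mki67, the chromosome surface protein Ki-67, by 0.53 (SE 0.07, limma adjusted p = 0.00226), and Kif4, a chromosome-bound kinesin, by 0.47 (SE 0.10, limma adjusted p = 0.0183). Top2b, the topoisomerase isoform also used outside the cell cycle, had a difference of 0.10, and Ctcf, which halts cohesin loops, one of 0.14, and neither passed. Of 4 meiotic cohesin genes looked for, none had a probe set annotated to it alone, so none was tested.

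**Figure D4:**
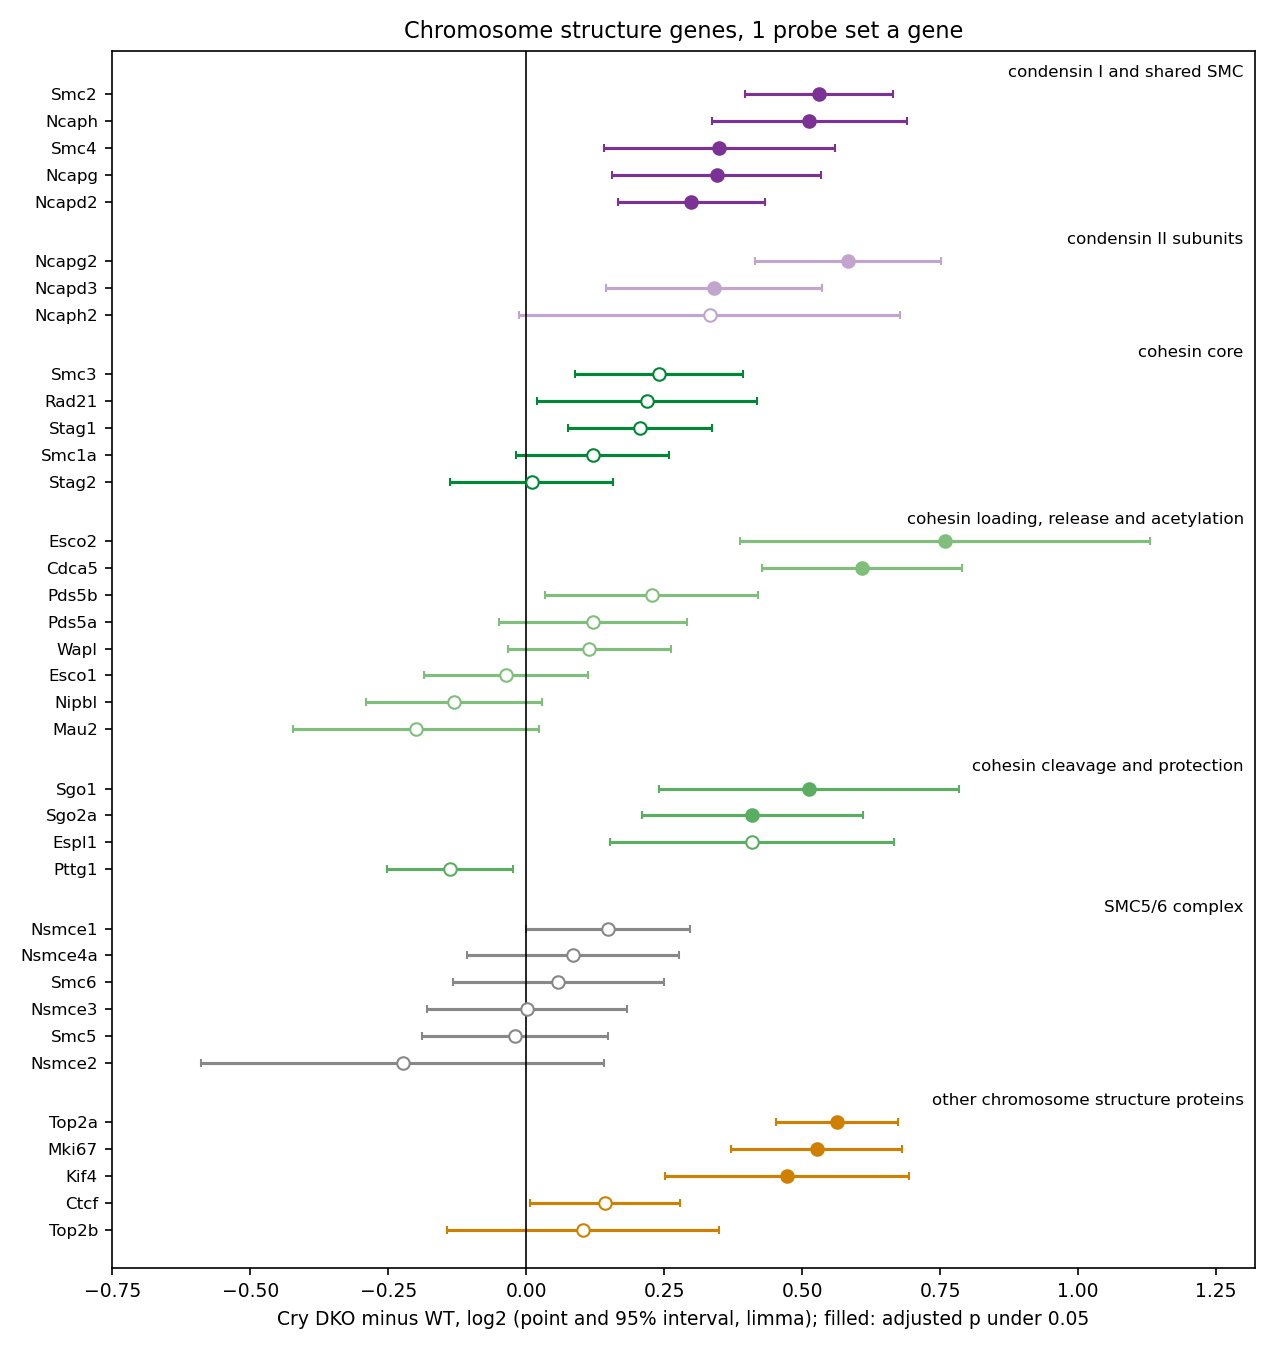
Log2 difference between Cry DKO and WT lines (x axis, Cry DKO minus WT; point and 95% interval from limma, n = 4 lines each) for condensin, cohesin and related genes, 1 probe set a gene. Filled points passed an adjusted p of 0.05, which are the 5 condensin genes, Ncapg2, Ncapd3, Esco2, Cdca5, Sgo1, Sgo2a, Top2a, Mki67 and Kif4.

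Genes of the cell cycle were also higher in Cry DKO lines. Of 17 tested S phase genes 17 rose, with a median difference of 0.41, among them the kinase gene Tk1 by 0.57, the replication licensing gene Cdt1 by 0.53, the ribonucleotide reductase gene Rrm2 by 0.51, the helicase genes Mcm5 and Mcm3 by 0.56 and 0.48, and the sliding clamp gene Pcna by 0.31. Of 19 tested G2 and mitosis genes 17 rose and none fell, with a median of 0.44, among them the checkpoint kinase genes Ttk and Bub1 by 0.79 and 0.54, Birc5 by 0.57, the cyclin genes Ccnb2 and Ccna2 by 0.46 and 0.44, and Cdk1 by 0.41. The condensin median of 0.35 lay below both and the cohesin median of 0.21 lay lower still. With the macrophage marker mean as a covariate, 0 of the 17 tested S phase genes and 3 of the 19 tested G2 and mitosis genes passed in limma. Among all 9515 tested genes 56 passed in that fit, against 873 without the covariate.

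The genes whose signal ran most closely with the condensin mean over the 8 lines were Ncapg2 (Pearson's r = 0.993), Vamp3 (0.992), Cdca8 (0.988), Gmnn (0.987) and 4930579G24Rik (0.985), out of 9505 tested genes that are no member. With the genotype means removed their r with condensin was 0.92, 0.91, 0.92, 0.84 and 0.81. Cdca8 encodes borealin of the chromosomal passenger complex, and Gmnn encodes geminin, an inhibitor of replication licensing. For the cohesin mean they were Spc25 (0.988), U2surp (0.987), Parp1 (0.986), Ncapd3 (0.984) and Hus1 (0.976), with 0.91, 0.93, 0.90, 0.97 and 0.80 within genotypes. Spc25 encodes a kinetochore protein and Hus1 a checkpoint clamp subunit. These correlations are descriptions over 8 lines that share 1 genotype contrast. The genes were picked by their r over these same lines, so the values within genotypes are no separate check. For the r over the 8 lines, the 99th percentile of the 9505 genes was 0.938 for condensin and 0.918 for cohesin.

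Promoter windows from RefSeq (GRCm38.p6, from 250 bases before to 50 after the transcript start) were listed for 7 of the 10 members: Smc2, Ncapd2, Ncapg, Ncaph, Smc1a, Smc3 and Stag1. They were searched on both strands for the CHR element of late cell-cycle genes (TTTGAA), the CCAAT box, E2F-like words (TTTGGCGC, TTTCCCGC, TTTGCCGC and TTTCGCGC) and the E-box bound by CLOCK and ARNTL (CACGTG). The stretches printed here show CHR matches of 3 condensin genes, with a stretch of a cohesin promoter that has none for comparison. Capitals mark CHR and CCAAT matches on either strand (TTCAAA and ATTGG on the reverse), and each sequence reads 5′ to 3′ on the gene's strand.
Smc2 (chr4:52439071-52439220, plus strand): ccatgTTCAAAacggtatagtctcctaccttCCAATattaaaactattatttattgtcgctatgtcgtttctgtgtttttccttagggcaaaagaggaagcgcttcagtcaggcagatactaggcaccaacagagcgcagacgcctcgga
Ncapg (chr5:45669883-45669912, plus strand): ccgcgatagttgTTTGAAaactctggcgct
Ncapd2 (chr6:125191692-125191721, minus strand): cagccgttgaggTTTGAAcagggaattgcg
Smc1a (chrX:152016278-152016427, plus strand): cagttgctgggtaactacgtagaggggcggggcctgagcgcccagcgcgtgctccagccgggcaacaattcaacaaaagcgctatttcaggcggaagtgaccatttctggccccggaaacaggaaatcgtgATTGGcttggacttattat

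The CHR word was in 3 of 4 condensin windows (Smc2, Ncapg and Ncapd2, not Ncaph) and in none of 3 cohesin windows. It was in 17.9% of all 32851 windows, in 73.3% of 15 windows of the G2 and mitosis genes and in 10% of 20 windows of the S phase genes. An E2F-like word was in 2 of 4 condensin windows (Ncapg and Ncapd2) and 2 of 3 cohesin windows (Smc1a and Stag1), against 2.26% of all windows and 40% of the S phase windows. CCAAT was in 3 of 4 and 2 of 3, against 37.4% of all windows. The E-box was in none of the 7, against 7.15% of all windows. A match describes these letters only, the words were chosen with results of these genes known, and which factors bind there was not measured.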

How the data were processed

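Genotype and line number were read from each title. The table deposited by the authors holds log2 values, a base inferred from their range (0.07 to 14.3); the submitters' processing notes name GCOS, and how probes were summarised and normalised, or probe sets chosen, is not given in these sources. Array medians nearly coincide, so values were used as deposited, and a change in total RNA would be missed. Of 30506 probe sets 61 were controls, 658 named several genes and 4949 none; 24838 named 1 gene, and 24757 of these were updated to current symbols by gene identifier. For the gene fit, probe sets with a mean under the 40th percentile (6.05) were left out and the one of highest mean represented a gene. The test was that of limma 3.58.1 (R 4.3.3), fitted with an intensity trend and with Benjamini-Hochberg adjustment over all 9515 genes, or over 30445 probe sets with no filter. Intervals of 95% are unadjusted. The scripts were tested on simulated data. No array duplicated another (0 identical columns).

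Members, lists and tests were chosen with earlier results of these data known. Named were the members; up to 6 called genes, or the 2 of smallest p, of each related list; the 5 genes most correlated with each complex; and others of these lists, chosen after their values were seen. Titles share replicate numbers but name no pairing, so the lines were not treated as paired in the main fit. Same-numbered lines deviated together with correlations of 0.36, 0.12, 0.23 and -0.01, which do not settle whether they were paired. Alternatives changed the normalisation, the filter, the choice of probe set, the empirical Bayes trend and array weights, or added a replicate block, sex (from Y-linked genes) or the macrophage marker mean, or left out 1 line.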

Additional observations from a re-analysis of the deposited data

Results flagged for a closer look

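In 66 groups of 4 values from member probe sets and complex means, 2 held a line far from the other 3 by Dixon's test, where chance flags about 1 in 20. WT line 2 had 6.65 for 1429658_a_at of Smc2, below the other WT lines (6.76 to 6.78). WT line 3 had 5.62 for the dim 1441724_at of Stag1, above the other WT lines (5.21 to 5.26). Neither probe set represents its gene.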

How the results depend on the processing

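The condensin genes were higher in Cry DKO lines under all 19 alternatives, by 0.24 to 0.57. The count of 5 was 3 with sex as a term, 4 without an intensity trend (without Smc4), 0 with the macrophage mean as a covariate and 3 to 4 without 1 line (4 without Cry DKO line 1, 2 or 3, otherwise 3, with Smc2, Ncaph and Ncapd2 in each). The cohesin count of 0 was 2 with a 60th percentile filter (Smc3 and Stag1), 2 with the mean of probe sets (Rad21, 0.44, and Smc3), 1 with array weights (Smc3) and 0 to 0 without 1 line; the filter tests fewer genes. The Stag2 difference, Cry DKO minus WT, was -0.0132 with array weights, -0.0044 with the sex term, and between -0.0269 and 0.0539 without 1 line. Of 9 related chromosome genes called, 1 was with the macrophage covariate and 6 to 8 without 1 line. The 17 S phase genes became 0 with that covariate and 11 to 16 without 1 line (11 without WT line 3), the 17 G2 and mitosis genes 3 and 14 to 17, and the 873 genes in all 56 and 386 to 684, and 520 with sex. Condensin probe sets called were 1 without an intensity trend and 3 to 5 without 1 line, cohesin probe sets 2 with the filter, 0 without a trend and 0 to 1 without 1 line (0 without WT line 2 or 4). Condensin minus cohesin ranged from 0.22 to 0.27 without 1 line. The cause of these changes was not tested. Lines 1, 2 and 3 of the Cry DKO genotype correlated best with the WT line of the same number and line 4 did not, a hint from the data and not the design. Lines numbered 1, 2 and 3 also had the same sex in both genotypes, and those numbered 4 did not. What lies behind the correlations was not tested. With a replicate block the same 5 condensin genes and 0 cohesin genes were called, and 1050 genes in all. Dim probe sets have wide intervals and limit what can be seen of 5 member probe sets.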
